A study of Homo sapiens with 6 samples.

Results

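The microRNAs described here come from the imprinted DLK1-DIO3 domain, in band 14q32 of human chromosome 14, and were measured in Huh7, an established cell line from a human hepatocellular carcinoma. They were taken from a given list of 42 miRBase accessions of mature microRNAs from this domain, with any row of the deposited table that carries one of them kept. All 42 were found, among 1212 probes in the table. The question behind the series is which microRNAs respond to metformin, a biguanide drug against diabetes, in liver cancer cells. There were 3 control samples of Huh7 without metformin and 3 samples of Huh7 in 10 mM metformin, both kept for 72 h, and each sample was measured on 1 array with Hy5-labelled total RNA. Separate cultures are not stated in the labels for the samples of a group, so a p-value here reflects only the scatter among these arrays, and that scatter may be technical.

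The domain is imprinted, which means that the copy inherited from 1 parent is used. The protein-coding genes DLK1, RTL1 and DIO3 are expressed from the paternal copy, while MEG3, other long noncoding RNAs and the microRNAs are expressed from the maternal copy. Several of the microRNAs, miR-127 and miR-136 among them, are transcribed antisense to RTL1. Most of the others lie further downstream in a dense array that runs from miR-379 to miR-656. The cluster is known for expression in brain, placenta and embryonic tissue, and for high expression in a subset of human liver cancers. miR-134 limits the size of dendritic spines in rat neurons by repressing Limk1, and transcripts of the miR-376 group undergo A-to-I RNA editing.

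In the RefSeq table for GRCh38.p14, all 37 microRNA genes searched for under the names given with the list were found. Their 70 distinct mature arms, 21 to 23 bases long, lie on the plus strand at chr14:100869075-101066786, a span of 197.7 kb. The largest distance between neighbouring genes, 110.9 kb from start to start, divides them into 8 upstream genes (miR-493 to miR-370) and 29 downstream genes (miR-379 to miR-656). The median GC content of the 70 arms was 45.5%, against 52.2% for the 2370 human mature microRNAs in the same table. Neither the deposited table nor the RefSeq table pairs a miRBase accession with a microRNA name. For this reason each probe is called by its accession below, no arm or function is assigned to it, and no sequence can be set beside its values. The same gap kept the labelled cell type from being checked against hepatocyte microRNAs.

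The seed, bases 2 to 8 of a mature microRNA, directs most target recognition. Among the 70 arms, 7 seeds were each shared by a pair of microRNAs, 14 arms in all. The 4 pairs of 3p arms are shown because they illustrate how alike the sequences of this cluster can be, with the seed in capitals, written 5′ to 3′ as RNA from RefSeq.
hsa-miR-376a-3p: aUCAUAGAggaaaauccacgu
hsa-miR-376b-3p: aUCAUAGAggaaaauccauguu
hsa-miR-487a-3p: aAUCAUACagggacauccaguu
hsa-miR-154-3p: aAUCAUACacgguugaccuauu
hsa-miR-539-3p: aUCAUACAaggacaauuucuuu
hsa-miR-485-3p: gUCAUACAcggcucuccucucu
hsa-miR-379-3p: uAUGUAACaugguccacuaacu
hsa-miR-411-3p: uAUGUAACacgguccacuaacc
The other 3 shared seeds belonged to the 5p arms of miR-376b and miR-376c, of miR-487a and miR-487b, and of miR-410 and miR-494. The sources used here do not say how far the probes for such related sequences distinguish between them.

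The deposited values are intensities on a linear scale, processed by the authors. Over all probes, the median intensity of an array lay between 22.8 and 24.1, and the number of arrays limits the precision. The sources used here do not describe a background correction, so no probe can be called present or absent. Probes also differ in how well they hybridize, so brightness below describes the probes and does not rank the microRNAs.

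A single 14q32 probe was bright, and the others stayed at or under 2.03 times the median intensity of each array. MIMAT0002816 had intensities of 461.5, 358.1 and 432.8 on control replicates 1, 2 and 3, and of 435.0, 475.9 and 338.5 on metformin replicates 1, 2 and 3. It stood between 14.05 and 20.9 times the array median on every array, and at the 95.95 percentile of the 1038 probes that had all 6 values. Each of the other 41 probes stayed at or below 46.7 on every array. MIMAT0000722 came next, between 1.35 and 2.03 times the array median.

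The remaining probes formed a continuous band of low values. The counts that follow are for the 36 members with a value on all 6 arrays, MIMAT0002816 included. By mean log2 intensity, 10 of them were among the 259 dimmest of the 1038 probes and 18 among the 260 probes above these. Another 4 were among the next 259 and 4, including MIMAT0002816, among the 260 brightest. The 519 dimmer probes thus held 28 of them (77.8%), against 50% of all probes by construction. Their median geometric mean intensity was 20.4, against 22.5 over all 1038 probes. The lowest mean belonged to MIMAT0002813, at 9.37, with values from 5.7 to 15.4. The lowest value of any member was 5.5, which is also the lowest value of any probe on control replicate 3.

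**Figure D1:**
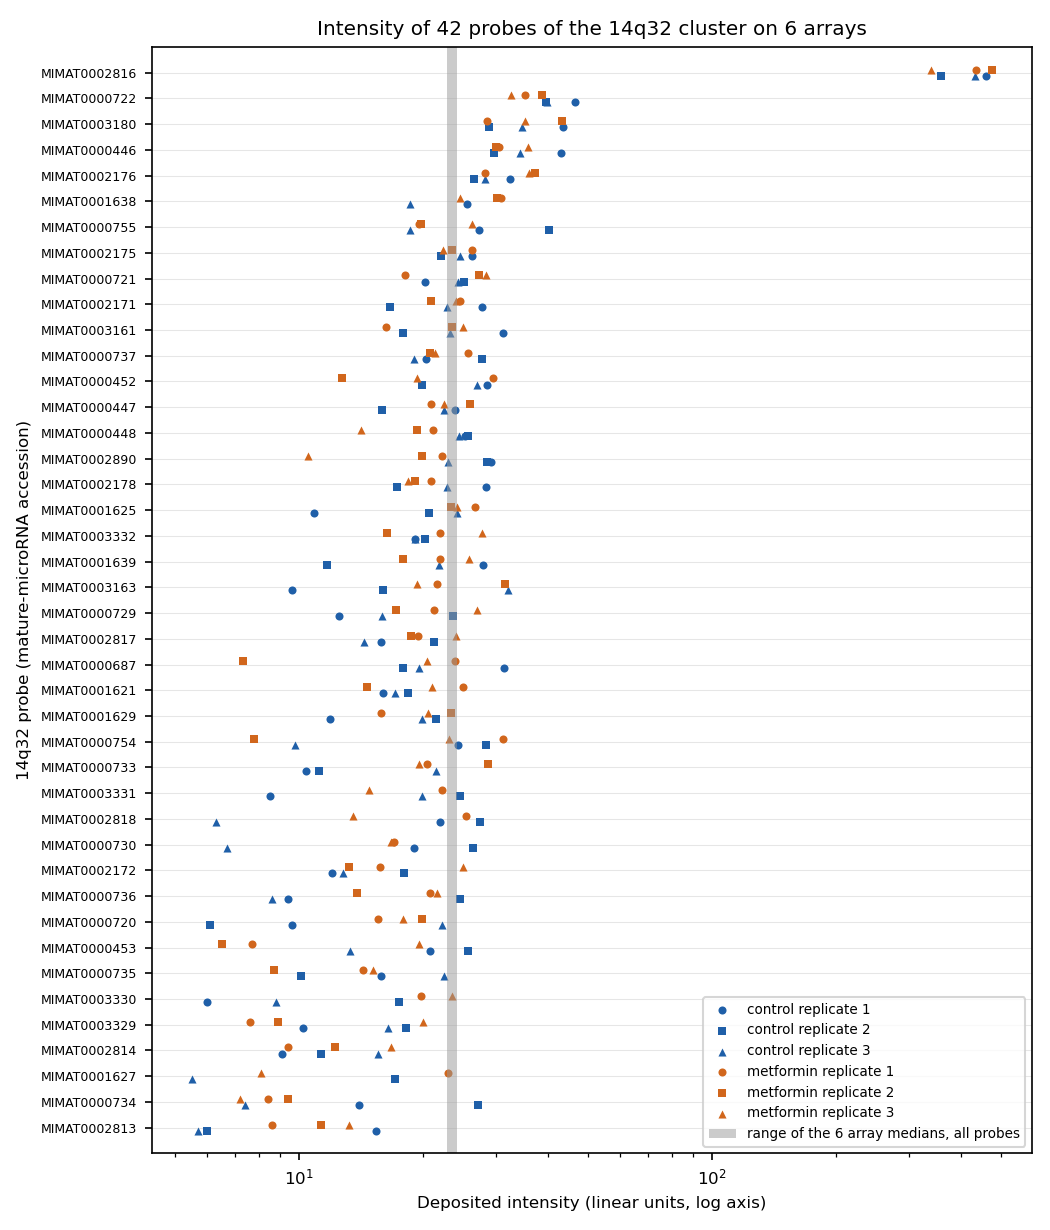
Intensity (log axis, linear units as deposited) of each of the 42 probes, ordered by mean, with blue marks for the 3 control arrays and orange marks for the 3 metformin arrays. MIMAT0002816 lies between 338.5 and 475.9 on all 6 arrays, and every value of the other 41 probes is 46.7 or lower, where the grey band marks the array medians (22.8 to 24.1).

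**Figure D2:**
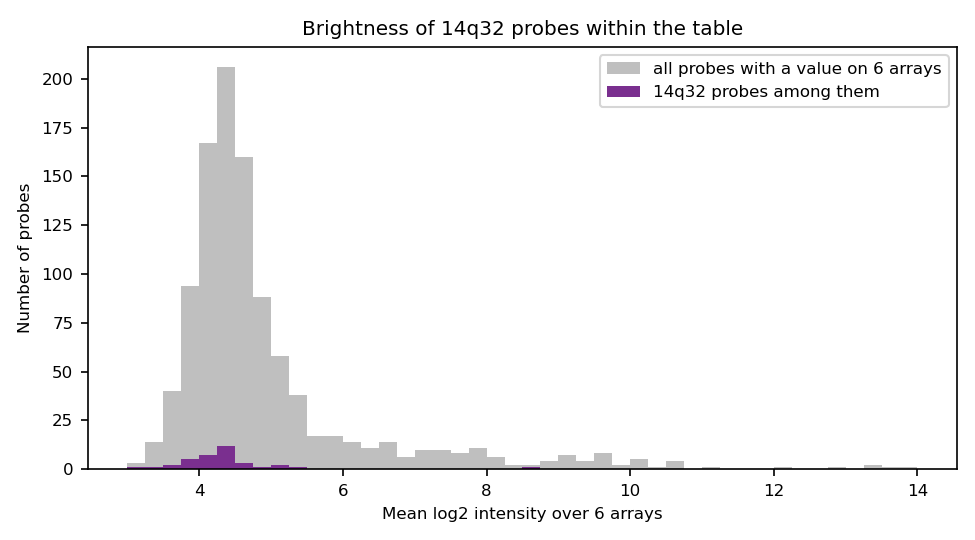
Number of probes (vertical axis) by mean log2 intensity over 6 arrays (horizontal axis), for all 1038 probes measured on every array (grey) and the 36 14q32 probes among them (purple). The purple bars sit in the main dim peak of the table, except for 1 probe at a mean log2 intensity of 8.69.

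Replicate arrays differed most for the dim members. The SD within groups, on the log2 scale and pooled over both groups, had a median of 0.40 over the 36 members and 0.38 over all 1038 probes. Among the 259 dimmest probes it was 0.61 for the 10 members and 0.64 for all. Among the 260 above these the medians were 0.38 and 0.44, among the next 259 they were 0.23 and 0.30, and among the 260 brightest 0.22 and 0.24. MIMAT0002175 had the smallest spread of the members (SD 0.12), with all 6 values between 22.1 and 26.3. MIMAT0000754 had the largest (SD 0.95), with values from 7.8 to 31.2, and its lowest value on each side came from control replicate 3 (9.8) and metformin replicate 2 (7.8). Over all 42 members, the highest value exceeded the lowest by more than 2-fold for 23 (54.8%) and by more than 3-fold for 10 (23.8%). Over all probes of the table the shares were 52.1% and 24.8%.

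**Figure D3:**
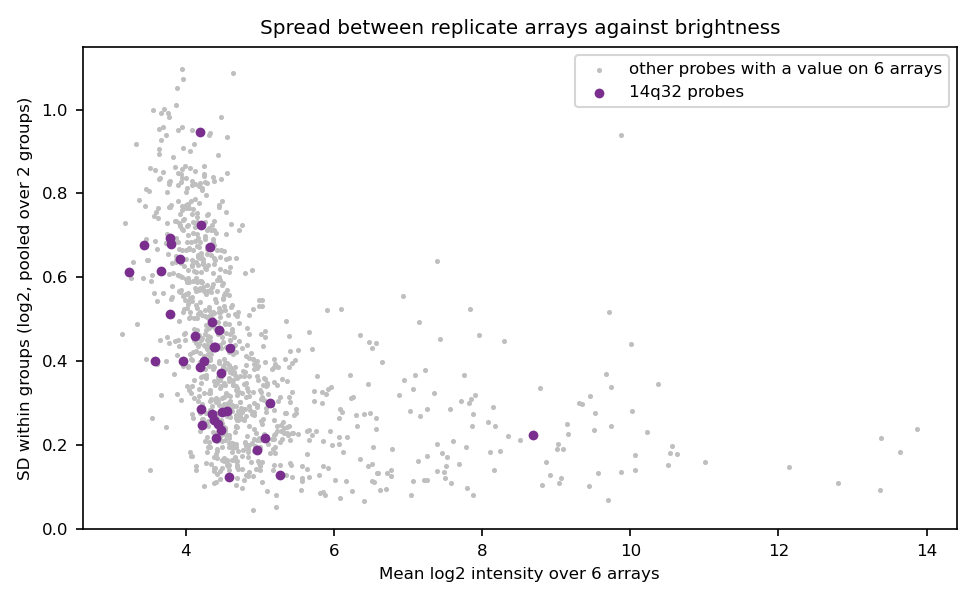
SD within groups (log2, pooled over control and metformin, vertical axis) against mean log2 intensity over 6 arrays (horizontal axis) for 1038 probes, with the 36 14q32 probes in purple. The members follow the fall of the spread with brightness that the other probes show, from a median of 0.61 for the members among the 259 dimmest probes to 0.22 for those among the 260 brightest.

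None of the 36 14q32 probes tested passed the threshold for a difference with metformin. In RNA pooled from many cells, a microRNA present in fewer cells cannot be told apart from one at a lower level per cell. By limma, fitted over all 1038 probes with p-values adjusted by Benjamini-Hochberg and called under 0.05, 0 of the 36 members were higher and 0 were lower, as were 0 of all probes tested (0%). The adjusted p of the members lay between 0.991 and 0.997. At an unadjusted p under 0.05 there were also 0 members, where 28 of all probes (2.70%) had such a value, and the lowest unadjusted p of a member was 0.065. The unmoderated linear model gave 0 members and 0 of all probes past the adjusted threshold. At an unadjusted p under 0.05 that model gave 0 members, against 35 of all probes (3.37%). A mean above control was found with metformin for 20 of the 36 members (55.6%), against 52.9% of all probes. The median log2 difference, metformin minus control, was 0.05 over the members and 0.03 over all probes, and the members' differences ran from -0.95 to 0.73. Without control replicate 2 the median of the members was -0.03 and that of all probes -0.0091.

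The bright probe did not separate the groups, and its interval, which reflects only the scatter among these arrays, lay within 2-fold in either direction. MIMAT0002816 had a control mean of 417.5 ± 53.4 (SD, n = 3) and a metformin mean of 416.5 ± 70.6 (SD, n = 3). The highest and the lowest of its 6 values both came from metformin arrays. Its log2 difference was -0.0099 (SE 0.24), with an unadjusted 95% interval from -0.57 to 0.55 and a limma adjusted p = 0.996. The sign of so small a difference turned when arrays were centred or single arrays were left out, with values between -0.24 and 0.13 over 16 alternative settings.

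The other 7 of the 8 brightest members each had a 95% interval that included 0. MIMAT0000722 measured 46.7, 39.6 and 39.9 on the control arrays and 35.2, 38.7 and 32.6 on the metformin arrays. Its groups did not overlap, with all 3 metformin values below all 3 control values, and its log2 difference of -0.24 was larger than its SD within groups (0.13). With the moderated standard error of 0.22 the interval ran from -0.75 to 0.26. MIMAT0003180 measured 43.5, 28.9 and 34.6 in control and 28.5, 43.4 and 35.3 with metformin, so that each group held a value near 43 and a value near 29. MIMAT0000446 measured 43.0, 29.6 and 34.2 in control and 30.5, 30.0 and 35.9 with metformin, with control replicate 1 the highest and the rest overlapping. MIMAT0002176 measured 32.4, 26.5 and 28.2 in control and 28.2, 37.3 and 36.1 with metformin. Its 2 highest values came from metformin replicates 2 and 3, while metformin replicate 1 equalled control replicate 3. Its log2 difference was 0.22 (SE 0.23, SD within groups 0.19), 0.34 without metformin replicate 1 and 0.14 without metformin replicate 2.

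The remaining 3 of these probes lay around the array medians, with MIMAT0000755 ranging between 0.79 and 1.70 times the median of its array. MIMAT0000755 measured 27.2, 40.4 and 18.6 in control and 19.5, 19.7 and 26.3 with metformin, and its high value on control replicate 2 had no counterpart on any other array. MIMAT0002175 measured 26.3, 22.1 and 24.5 in control and 26.3, 23.4 and 22.3 with metformin, which overlap throughout. MIMAT0000721 measured 20.2, 25.1 and 24.3 in control and 18.1, 27.3 and 28.4 with metformin, with both the lowest and the highest value on metformin arrays. The log2 differences of these 3 were -0.34 (SE 0.32), -0.02 (SE 0.22) and 0.06 (SE 0.26), each smaller than or about as large as its standard error. That of MIMAT0000755 was -0.06 without control replicate 2 and -0.62 without control replicate 3. The 95% interval lay within 2-fold in either direction for all 4 members among the 260 brightest probes and for 3 of 4 among the 259 next to them. Among the 260 probes below these it held for 10 of 18, and among the 259 dimmest for 1 of 10. Over all probes, in the same order, it held for 229 of 260, 198 of 259, 121 of 260 and 22 of 259. In all it held for 18 of the 36 members (50%), against 54.9% of all probes tested.

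Of the members with a higher mean with metformin, the 3 with the smallest p were MIMAT0000733, MIMAT0000720 and MIMAT0001625. MIMAT0000733 measured 10.4, 11.2 and 21.5 in control and 20.4, 28.6 and 19.5 with metformin. Control replicates 1 and 2 were low, and control replicate 3 lay within the metformin range, so the groups overlapped. The log2 difference came to 0.73 (SE 0.34), its 95% interval ran from -0.06 to 1.51, and the limma adjusted p was 0.991. MIMAT0000720 measured 9.6, 6.1 and 22.2 in control and 15.5, 19.8 and 17.9 with metformin, a log2 difference of 0.69 (SE 0.45). Its highest value of all came from control replicate 3. Its lowest came from control replicate 2 and lay near the lowest value of any probe on that array (5.7). Without control replicate 3 the difference was 1.21, and without control replicate 2 it was 0.27. MIMAT0001625 measured 10.9, 20.6 and 24.1 in control and 26.7, 23.3 and 24.1 with metformin, a log2 difference of 0.49 (SE 0.33), of which a large part came from the low value on control replicate 1 (0.15 without that array).

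In the other direction the 3 members with the smallest p were MIMAT0000453, MIMAT0002890 and MIMAT0000448. MIMAT0000453 measured 20.8, 25.7 and 13.3 in control and 7.7, 6.5 and 19.5 with metformin. Metformin replicates 1 and 2 were low, near the lowest values on those arrays (5.8 and 6.2), while metformin replicate 3 lay within the control range, and without it the difference was -1.44. The log2 difference came to -0.95 (SE 0.46), its 95% interval ran from -2.01 to 0.10, and the limma adjusted p was 0.991. MIMAT0002890 measured 29.2, 28.5 and 22.9 in control and 22.2, 19.9 and 10.5 with metformin, a log2 difference of -0.68 (SE 0.33). Its groups did not overlap, but the gap between them, from 22.2 to 22.9, was small beside the spread of the metformin values. Without metformin replicate 3 the difference was -0.35. MIMAT0000448 measured 25.2, 25.7 and 24.4 in control, the tightest control group of these 6 probes (mean 25.1 ± 0.66, SD, n = 3). With metformin it measured 21.1, 19.3 and 14.1 (mean 18.2 ± 3.64, SD, n = 3), all below the control values, and its log2 difference was -0.49 (SE 0.24), or -0.31 without metformin replicate 3.

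The groups did not overlap for 3 of the 36 members (8.33%), MIMAT0000722, MIMAT0002890 and MIMAT0000448, against 7.61% of all probes tested. All 3 were lower with metformin, where 3.18% of all probes were, and none was higher, where 4.43% were. A difference of more than 2-fold between group means was found for 0 of the 36 members and for 8 of all probes (0.771%). The 22 tested members not chosen by brightness or smallest p had values from 5.7 to 32.1 and differences from -0.77 to 0.55. Of these, 14 were higher and 8 lower in mean with metformin, and their lowest unadjusted limma p was 0.125.

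**Figure D4:**
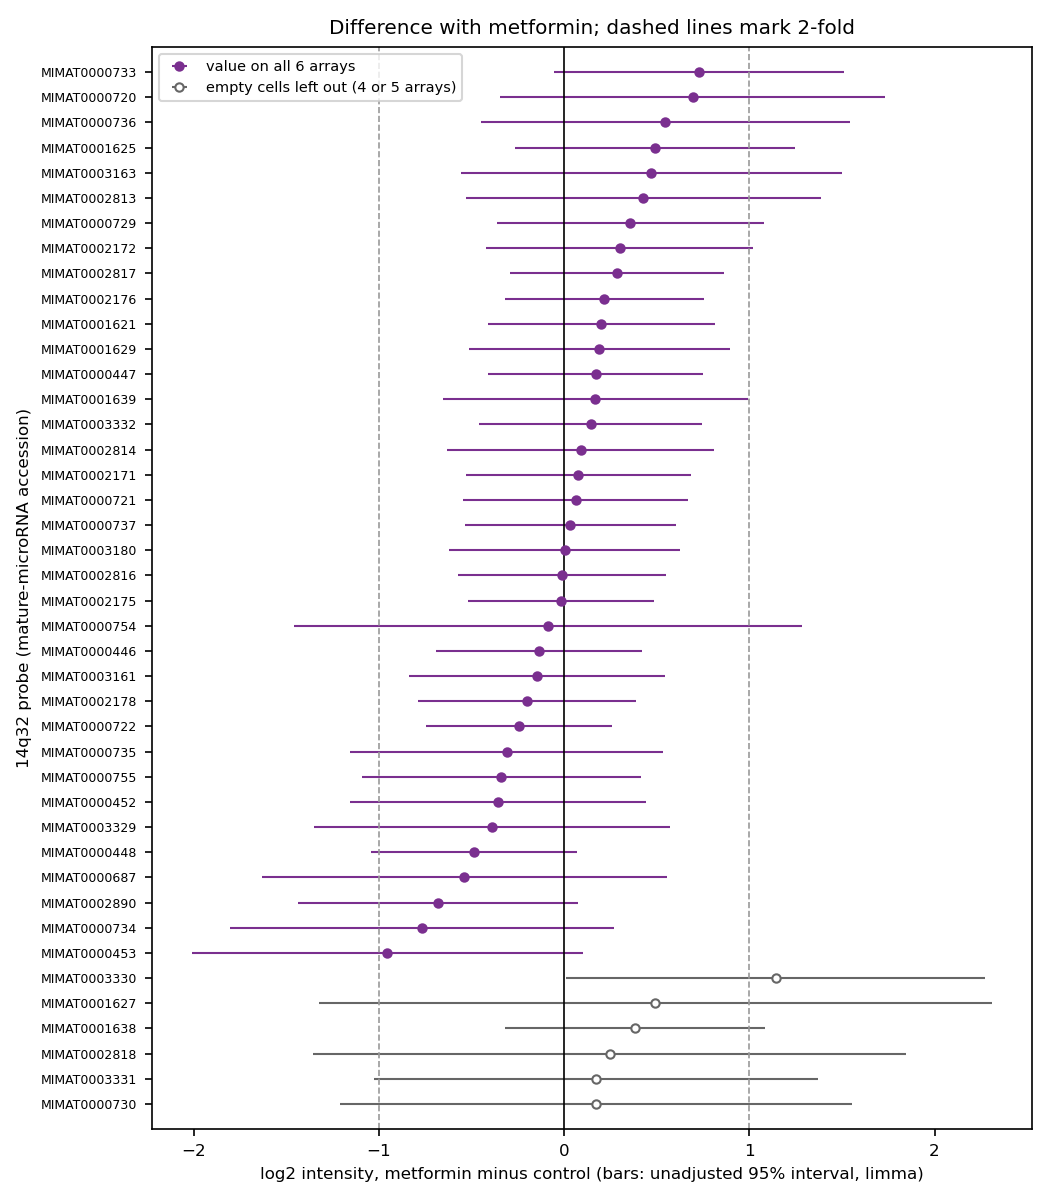
Difference in log2 intensity, metformin minus control, with unadjusted 95% intervals from limma, for the 36 14q32 probes with a value on all 6 arrays (filled) and the 6 with empty cells, fitted on 4 or 5 arrays (open). Every interval of a filled probe includes 0, and 18 of the 36 lie within the dashed lines at 2-fold.

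Single arrays weighed on several of the dim members. Without control replicate 3, 5 of the 36 members had an unadjusted p under 0.05 by limma, where 34 of all 1038 probes (3.28%) had one. The lowest limma adjusted p among the 5 was 0.975. These were MIMAT0000720, with a difference of 1.21, MIMAT0000733 with 1.06, MIMAT0003163 with 0.93, MIMAT0000453 with -1.22 and MIMAT0000734 with -1.23. They were named after their values were seen. Both directions occur among them. On the omitted array MIMAT0000734 measured 7.4, within its metformin range of 7.2 to 9.4. MIMAT0003163 measured 32.1 there, above its metformin range of 19.3 to 31.5. Leaving out any other single array gave 0 or 1 such member of the 36, against 2.22% to 4.24% of all probes.

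A total of 6 members (14.3%) had an empty cell on at least 1 array, as had 14.4% of all probes. MIMAT0001627 had a value on 4 arrays, and MIMAT0000730, MIMAT0001638, MIMAT0002818, MIMAT0003330 and MIMAT0003331 each had one on 5. Of the 7 empty cells, 5 were on metformin replicate 2, which also held 113 of the 224 empty cells of the whole table. When probes with at least 2 values in each group were fitted with empty cells left out (1200 probes), the differences of these 6 members ran from 0.17 to 1.14, with a limma adjusted p of 0.990 for each. Of these, MIMAT0003330 had the largest difference, 1.14 (SE 0.47), and it alone fell under the unadjusted threshold of 0.05, as did 2.58% of all probes in that fit. It measured 5.99, 17.5 and 8.8 on control replicates 1, 2 and 3 and 19.7 and 23.4 on metformin replicates 1 and 3. Its value on control replicate 1 lay near the lowest of any probe on that array (5.87) and was deposited with more than 1 decimal. The fit took metformin replicate 2 as missing, and the sources used here do not say by which rule cells were left empty.

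The level of the members as a whole differed less between the groups than between arrays of 1 group. Each array's median deviation of the members from their own 6-array means was 0.15, -0.03 and 0.05 on control replicates 1, 2 and 3, and 0.06, -0.10 and 0.16 on metformin replicates 1, 2 and 3, on the log2 scale. The mean over the control arrays was 0.06 ± 0.09 (SD, n = 3). Over the metformin arrays it was 0.04 ± 0.13 (SD, n = 3), so the arrays of 1 group were further apart than the groups. On control replicate 1 the members stood above the median deviation of all probes (0.01), and on metformin replicate 2 they stood below it (0.03). A member had its single highest value on control replicate 1 in 10 of 36 cases (27.8%), against 13.1% of all probes. A member had its single lowest value on control replicate 2 in 8 cases (22.2%), against 26.0% of all probes, and on metformin replicate 2 in 7 cases (19.4%), against 20.2%. Control replicate 1 also held the lowest value of 7 members (19.4%, against 14.3% of all probes), so that members were often at either end of their range on that array.

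**Figure D5:**
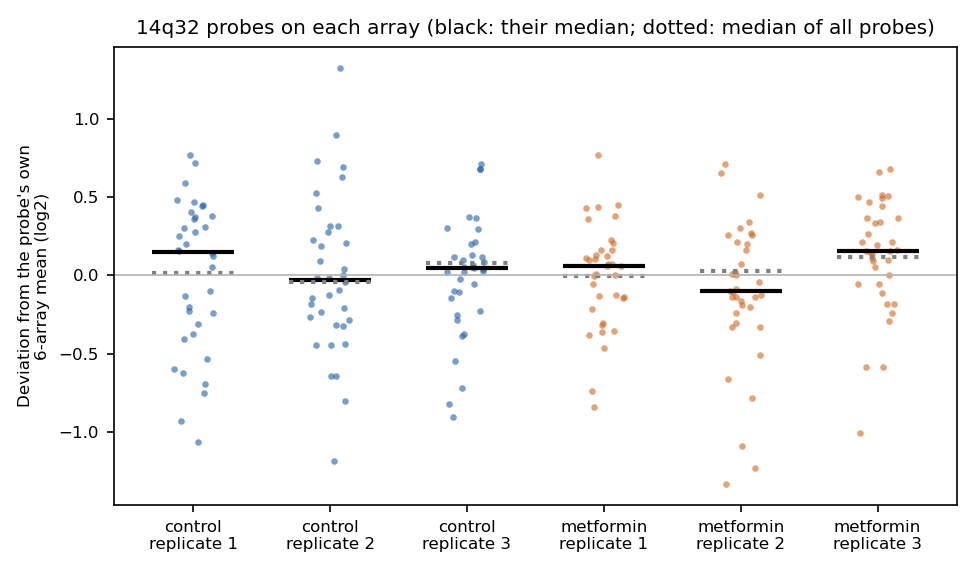
Deviation of each of the 36 14q32 probes from its own 6-array mean (log2, vertical axis) on each array (horizontal axis), with a black bar at the members' median and a dotted bar at the median of all 1038 probes. The members' median is lowest on metformin replicate 2 (-0.10) and highest on metformin replicate 3 (0.16), and control and metformin arrays overlap.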

How the data were processed

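Mature microRNAs were measured in 6 Huh7 samples on 1-colour arrays. Per the labels' protocols, total RNA was labelled with Hy5. The authors deposited 1 table of linear intensities, already processed, as inferred from values above 0 and nearly equal array medians. The sources used here name no scanner, background correction or scaling. The table holds 1212 probes, against 985 in the series' design text. All 6 columns were used. On control replicate 1, 201 values carry more than 1 decimal, 3 of them members.

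The log2 of each intensity was taken, without a pseudocount. The 1038 probes with 6 values, 36 of them members, were fitted with limma 3.58.1 in R 4.3.3 (lmFit and eBayes, two-sided, no covariates). P-values were adjusted over all probes by Benjamini-Hochberg, and 95% intervals were not. The procedure was tested on simulated data with differences larger than any in the main fit and no empty cells. That test does not show whether differences of the size seen here would be found. The members and lists were chosen with earlier results of these data known. Values on every array are given for the 8 brightest tested members and the 3 with the smallest p in each direction. Other members are given by ranges and counts, and any named outside that rule for an extreme value, an empty cell or a count of 5 or fewer was chosen after its value was seen. Steps that need microRNA names (marker microRNAs, hairpin arms, seeds of the probes, position groups and other 14q32 probes) were not run. Alternatives were another normalization or centring, filters, log2(value + 1), other variance models, a block for the replicate number, and omission of each array in turn. A repeat without the probes of more than 1 decimal was added after seeing the data. It took only probes with 6 values, so it did not cover MIMAT0003330. Plots used matplotlib 3.10.9.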

Additional observations from a re-analysis of the deposited data

How the results depend on the processing

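All 16 alternative settings gave 0 members past the adjusted threshold by limma or the unmoderated model, and 0 of all probes tested. The median log2 difference of the members, 0.05, moved by less than the spread between arrays in each of them. With single arrays omitted it lay between -0.03 and 0.07. It was 0.12 with at least 2 values per group (which adds the 6 members with empty cells) and was -0.01 over the 8 members among the 519 brighter probes. It turned sign in 2 settings, that filter and the one without control replicate 2. In 218 refits of the 14 members chosen by brightness or smallest p, 0 passed the threshold and 17 turned the sign. These 17 were all among 5 of the 8 brightest members, whose differences were smaller than their standard errors. The other 9 members kept their sign. MIMAT0002816 turned to 0.011 with median centring and to 0.0082 with centring on the 75th percentile, and ranged from -0.12 to 0.13 over the omissions of 1 array. MIMAT0002175 turned to 0.0028 and 0.00030 under the same centrings, and ranged from -0.086 to 0.041. MIMAT0003180 turned to -0.029 after quantile normalization, and ranged from -0.15 to 0.16. MIMAT0000446 ranged from -0.26 to 0.0095 and MIMAT0000721 from -0.055 to 0.27. The cause was not tested. The number of members at an unadjusted p under 0.05, 0, was 1 with at least 2 values per group (2.58% of all probes). It lay between 0 and 5 over the same omissions (5 without control replicate 3). The share of all probes over these omissions lay between 2.22% and 4.24%. The number with an interval within 2-fold, 18, was 8 among the 519 brighter probes, which hold 8 members, and lay between 14 and 20 elsewhere. Control and metformin samples share replicate numbers that no label says pair them. Deviations from the group means of same-numbered samples correlated with r = 0.01, -0.27 and -0.02 over all probes. With the replicate block 0 members and 0 of all probes passed. By limma with this block, 0 members had an unadjusted p under 0.05, against 2.31% of all probes. The median difference of the members stayed at 0.05. Precision is limited by 3 arrays per group.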
